A study of Mus musculus with 12 samples.

Results

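The genes described here are those that make, cut and bind hyaluronan: the synthases Has1, Has2 and Has3, the hyaluronidases Hyal1 and Hyal2, the hyaluronan-degrading protein Cemip and the receptor Cd44. They were taken by name from the gene tables, and all 7 were found among 32498 named rows. All 7 had a mean of at least 0.1 FPKM (fragments per length of exon and per size of library), so all were among the 16849 genes tested.

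RNA was sequenced from tumor and tumor-associated tongue tissue of C57BL/6 mice that had drunk the carcinogen 4-nitroquinoline 1-oxide (4NQO) at 100 µg/mL for 16 weeks and then regular water. The mice were bought at 5 weeks of age. From week 4 of 4NQO, the GA group (6 libraries) received gallic acid, a plant polyphenol, by gavage at 100 mg/kg 5 times per week until sacrifice, and the vehicle group (6 libraries) received the carrier alone on the same schedule. Both groups thus carried the carcinogen, and no tissue free of 4NQO is among the samples. Nothing in the labels says that each library came from a separate mouse, so p-values measure the spread between these libraries.

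Hyaluronan is a long sugar chain of the matrix between cells, spun out through the plasma membrane by the HAS enzymes from activated sugars and taken apart by hyaluronidases, partly at the cell surface and partly in lysosomes. CD44 is its main cell surface receptor and ties the chain to the actin skeleton through the ezrin family. In stratified epithelium such as that of the tongue, hyaluronan fills the spaces between keratinocytes, and CD44 is known as a marker of basal cells and of cells that start squamous carcinomas.

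Epithelial, muscle, stromal and myeloid markers were all detected, and the mix differed between libraries. Reads recovered from the values gave totals of 18040420 to 21770380 in the vehicle group and 21237167 to 25192741 in the GA group. All 18 epithelial list genes were tested, and their summed level ran from 20254 to 47113 scaled FPKM in vehicle and from 16816 to 31893 in GA-treated libraries. The neutrophil receptor gene Csf3r ran from 0.0305 to 16.3 scaled FPKM in vehicle and from 0.0835 to 4.35 with GA. Lipf, a lipase of lingual glands, was at 8228 to 26032 scaled FPKM in Vehicle 3, Vehicle 5 and GA 2 and at most 0.495 elsewhere. Vehicle 4 and GA 6 stood apart in several of the genes below, and the main results that rest on them are given with and without them. In bulk tissue, fewer cells of a type and less RNA per cell cannot be told apart.

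The 7 genes lie on 6 chromosomes of the mouse genome (GRCm38, GENCODE M21 gene models). The synthases are at chr17:17843323-17855205 (Has1, minus strand), chr15:56665627-56694539 (Has2, minus strand) and chr8:106870242-106884566 (Has3, plus strand). Hyal2 and Hyal1 are neighbours at chr9:107567945-107572779 and chr9:107576927-107581710, both on the plus strand. Cemip is at chr7:83932857-84086502 and Cd44 at chr2:102811141-102901665, both on the minus strand. Of the exon bases of Hyal1, 51.9% are shared on the same strand with Naa80 or Hyal3, so its level is uncertain where the counting had to assign or drop shared reads. Overlap with a gene on the opposite strand touched 4.30% of Has2 exon bases (Has2os) and 5.52% of those of Has3 (Chtf8).

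Hyal1, Cd44 and Cemip were 3 of the 4 genes that rose with the epithelial list below, and their upstream sequences are shown for that reason. Each is the 250 bases before the RefSeq start site on the gene's own strand (GRCm38.p6). Capitals mark matches to the TATA motif TATAAA or the Sp1 motif GGGCGG on either strand.
Cd44, chr2:102901666-102901915, minus strand: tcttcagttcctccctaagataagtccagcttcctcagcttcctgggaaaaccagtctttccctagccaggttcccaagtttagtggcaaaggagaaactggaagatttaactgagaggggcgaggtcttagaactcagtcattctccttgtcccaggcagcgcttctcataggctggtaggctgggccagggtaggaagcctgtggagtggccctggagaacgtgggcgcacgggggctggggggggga
Cemip, chr7:84086506-84086755, minus strand: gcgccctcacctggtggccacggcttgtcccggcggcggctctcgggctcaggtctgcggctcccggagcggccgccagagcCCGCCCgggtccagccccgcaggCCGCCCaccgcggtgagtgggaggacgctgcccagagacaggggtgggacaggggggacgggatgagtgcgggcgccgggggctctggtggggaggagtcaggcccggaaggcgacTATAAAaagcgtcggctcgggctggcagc
Hyal1, chr9:107576700-107576949, plus strand: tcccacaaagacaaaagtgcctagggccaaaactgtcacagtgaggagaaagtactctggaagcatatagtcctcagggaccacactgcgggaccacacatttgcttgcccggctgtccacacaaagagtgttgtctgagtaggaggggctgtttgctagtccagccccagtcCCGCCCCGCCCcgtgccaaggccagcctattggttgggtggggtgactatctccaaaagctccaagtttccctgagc
The Cemip window held a TATA match 29 to 24 bases before the start and 2 Sp1 matches, and the Hyal1 window held 2 overlapping Sp1 matches. These motifs occur in 12.4% and 32.7% of 32851 mouse promoters of the same length. The Cd44 window held none of the 5 motifs searched, which included AP-1 (TGANTCA, in 6.75% of promoters), CRE (TGACGTCA, 1.55%) and STAT (TTCNNNGAA, 7.02%), each on both strands. The base composition differed, with G or C at 75.2% of the Cemip bases against 56.4% for Cd44 and 56% for Hyal1. A match is a description of the letters and not a site shown to be bound.

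Has3 was the dominant synthase in every library. Its share of the summed FPKM of the synthases was 92.3% ± 4.63 (SD, n = 12), with a range of 82.5% to 98.99%. Has2 held 5.58% ± 3.61 and Has1 2.17% ± 1.70. FPKM is per length of exon, so the levels of different genes can be set side by side. The share of Has3 was 92.7% ± 3.0 in vehicle and 91.8% ± 6.12 in GA-treated libraries (n = 6 each), a difference of -0.98 points (exact two-sided permutation test, p = 0.729).

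Has3 makes hyaluronan at the surface of keratinocytes among other cells. Its level in vehicle libraries ran from 7.96 through a median of 14.2 to 34.1 scaled FPKM, and with GA from 4.67 through 9.90 to 37.2. Vehicle 4 and GA 6 were the highest of their groups, and the groups overlapped over most of their range. Has2, the main synthase of many mesenchymal cells and one that embryos cannot do without, ran from 0.182 through 0.858 to 2.11 scaled FPKM in vehicle and from 0.173 through 0.464 to 0.790 with GA. Vehicle 5 was the highest and the whole GA group lay below the vehicle median, although the lowest vehicle library was close to the lowest GA library. Has1, the remaining synthase, stayed between 0.102 and 0.378 in vehicle (median 0.174) and between 0.0906 and 0.465 scaled FPKM with GA (median 0.230). At 9 to 49 reads per library, Has1 is set by few fragments.

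**Figure D1:**
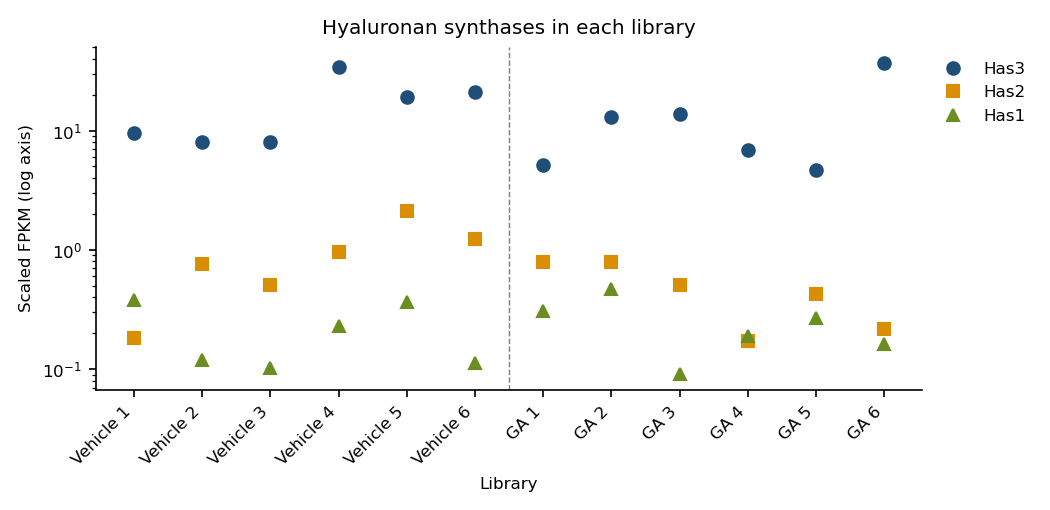
Scaled FPKM of Has1, Has2 and Has3 (log axis) in each of the 12 libraries, with vehicle left of the dashed line and GA right of it. Has3 was the highest in all 12, and Has2 was above Has1 in 10 of 12.

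The distance between Has3 and Has2 varied widely. Has3 was 6.57 times Has2 in GA 1 and 171 times in GA 6, with vehicle libraries between 8.96 (Vehicle 5) and 52.1 (Vehicle 1). The log2 ratio of Has3 to Has2 was 4.25 ± 1.00 in vehicle and 4.62 ± 1.66 in GA-treated libraries (exact permutation p = 0.662). Over the 12 libraries Has2 and Has3 levels had a Pearson r of 0.25 (rho 0.38, permutation p = 0.437 and 0.227, adjusted p = 0.865 for r over 21 pairs of genes).

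Among Hyal1, Hyal2 and Cemip, Hyal2 had the highest mean level and varied least between libraries. Hyal2, which is anchored at the cell surface and cuts long chains, ran from 6.90 through 8.76 to 10.2 scaled FPKM in vehicle and from 7.94 through 8.76 to 10.8 with GA. The groups covered nearly the same range. Hyal1, the lysosomal hyaluronidase, ran from 2.19 through 3.11 to 4.55 scaled FPKM in vehicle and from 1.79 through 2.25 to 2.82 with GA. Each of the 6 GA-treated libraries lay below the vehicle median, and Vehicle 1 was the highest, but the 2 lowest vehicle libraries fell within the range of GA. Cemip, which binds hyaluronan and is needed for its breakdown in fibroblasts, ran from 3.59 through 3.97 to 11.9 scaled FPKM in vehicle and from 2.06 through 3.34 to 10.5 with GA. Vehicle 1, Vehicle 5 and GA 6 were at 9.87 or higher, while the remaining 9 libraries were at 4.01 or lower.

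Cd44 was the most abundant gene of the set. It ran from 37.5 through 56.7 to 126 scaled FPKM in vehicle and from 34.6 through 45.8 to 95.4 with GA. Vehicle 4 and GA 6 were again the highest, and the other 10 libraries lay between 34.6 and 62.8. Ordered by mean log2 level, the genes ran Cd44, Has3, Hyal2, Cemip, Hyal1, Has2 and Has1. The neighbouring pairs were taken from this order, which the same libraries set. In 5 of 6 of these pairs the levels differed beyond the spread of their difference between libraries (exact two-sided sign-flip permutation test over 12 libraries, adjusted p from 0.00146 to 0.00645). Has3 and Hyal2 did not differ by that test (adjusted p = 0.149, Has3 higher in 7 of 12 libraries). The test measures the spread between libraries and not how reads shared between genes were counted. With 51.9% of its exon bases shared, the place of Hyal1 below Cemip (median fold 1.49) is therefore uncertain.

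**Figure D2:**
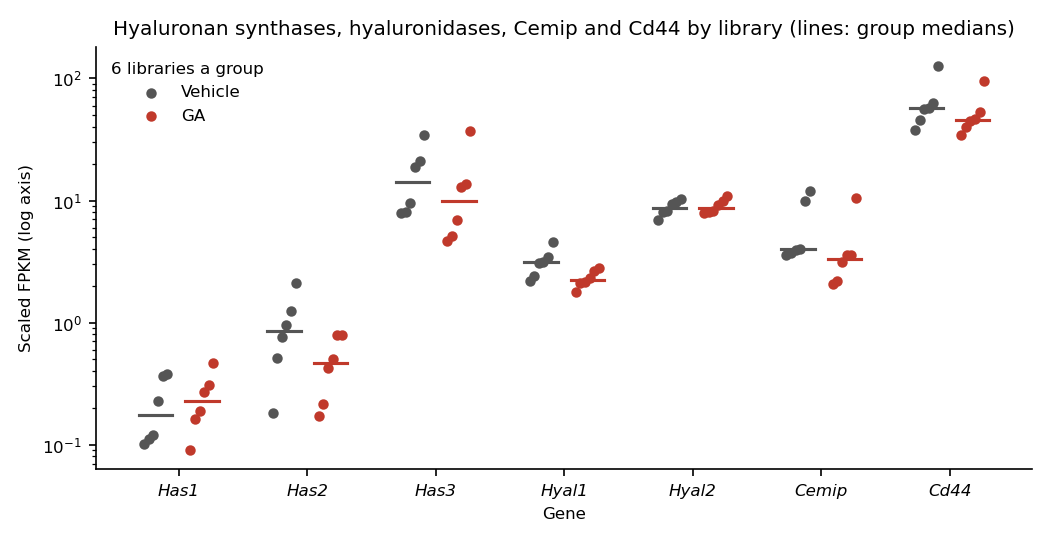
Scaled FPKM (log axis) of the 7 genes in 6 vehicle and 6 GA-treated libraries, with each point a library and each line a group median. The groups overlapped for every gene, and the medians of Has2 (0.858 and 0.464) and Hyal1 (3.11 and 2.25) lay lower with GA.

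No gene of the set passed the test of GA against vehicle. The call was a Benjamini-Hochberg adjusted p below 0.1 with a log2 fold change of at least 0.58 in size, by limma on log2(scaled FPKM + 0.1), where low genes show less than their true fold. It was met by 0 of 7 genes and by 0 of all 16849 genes tested (0%), and every adjusted p of the set was 0.9996. Unadjusted p was below 0.05 for 1 of the 7 against 367 genes, or 2.18%, of all tested, and an unadjusted p below 0.1 with that fold was met by 0 of 7 against 336 genes, or 1.99%. Hyal1 was that gene, with a log2 fold change of -0.40 (SE 0.18, 95% interval -0.78 to -0.01, unadjusted limma p = 0.0439, exact permutation p = 0.0390). The smallest p that 6 against 6 libraries can give in the exact test is 0.00216.

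The other intervals were wide. Has2 had a log2 fold change of -0.74 (SE 0.47, interval -1.76 to 0.29, exact permutation p = 0.169) and Cemip one of -0.60 (SE 0.42, interval -1.51 to 0.30, exact permutation p = 0.182). For Has3 it was -0.48 (SE 0.52, interval -1.60 to 0.64) and for Cd44 -0.26 (SE 0.29, interval -0.89 to 0.37). Hyal2 had the narrowest interval, from -0.21 to 0.31 around 0.05, and Has1 had 0.14 (SE 0.33). The estimate was lower with GA for 5 of 7 genes, with a median of -0.40, against 52.5% of all genes tested and a median of -0.01.

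Single libraries and covariates moved these estimates, and none of the 7 genes was called in any of the fits. Without GA 6, Has3 was at -0.85 (unadjusted p = 0.0738), Cd44 at -0.45 and Cemip at -0.91 (unadjusted p = 0.0213). Without Vehicle 4, Has3 was at -0.23, Cd44 at -0.045 and Cemip at -0.69. Without Vehicle 1, Has2 was at -1.07 (unadjusted p = 0.0219) and Cemip at -0.38, and without Vehicle 5 Has2 was at -0.47. Hyal1 ran from -0.49 to -0.28 when a library was left out, and its unadjusted p was above 0.05 in 8 of 12 such fits, up to 0.0975 without Vehicle 1. Its p was also above 0.05 with no scaling (0.0660), the sex term (0.0657), the neutrophil term (0.0719) and the epithelium term (0.0875, with the estimate at -0.27), and was 0.0215 with the muscle term. For Has2 the estimate was -0.35 with the neutrophil term, -0.62 with the gland term, -0.84 with the muscle term, -0.92 with the epithelium term and -1.01 with the sex term. With the epithelium term Has3 was at -0.11 (SE 0.44), Cd44 at -0.0052 (SE 0.21) and Cemip at -0.30 (SE 0.36), and with the sex term Has3 was at -0.92 (SE 0.57) and Cemip at -0.85 (SE 0.49).

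The rest of the hyaluronan pathway did not pass the test either. Of 47 listed genes 32 were tested, and 0 passed, as among all genes tested. The estimate with GA was lower for 21 (65.6%) and higher for 11, against 52.5% of all genes tested that were lower. An unadjusted limma p below 0.05 was met by 0 of them, against 2.18% of all genes tested. Among 9 genes of sugar precursor synthesis, Ugp2, which makes UDP-glucose, had 0.51 (SE 0.27) and the glycolytic isomerase Gpi1 0.15 (SE 0.14). Of 5 genes of breakdown, the lysosomal hexosaminidase gene Hexa had 0.08 (SE 0.35). The scavenger receptor Stab1 had -0.61 (SE 0.53) and the lymphatic receptor Lyve1 -0.15 (SE 0.40). All 4 receptors tested had an estimate below 0, with unadjusted limma p from 0.269 to 0.724. Of 10 hyaluronan-binding proteins, Habp4 had 0.09 (SE 0.12) and Itih5, whose family cross-links hyaluronan, 0.13 (SE 0.32). Ezrin (Ezr), which joins CD44 to actin, had -0.19 (SE 0.19) and moesin (Msn) -0.31 (SE 0.45). The sperm hyaluronidases Spam1 and Hyal5 were listed at 0 in all 12 libraries.

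**Figure D3:**
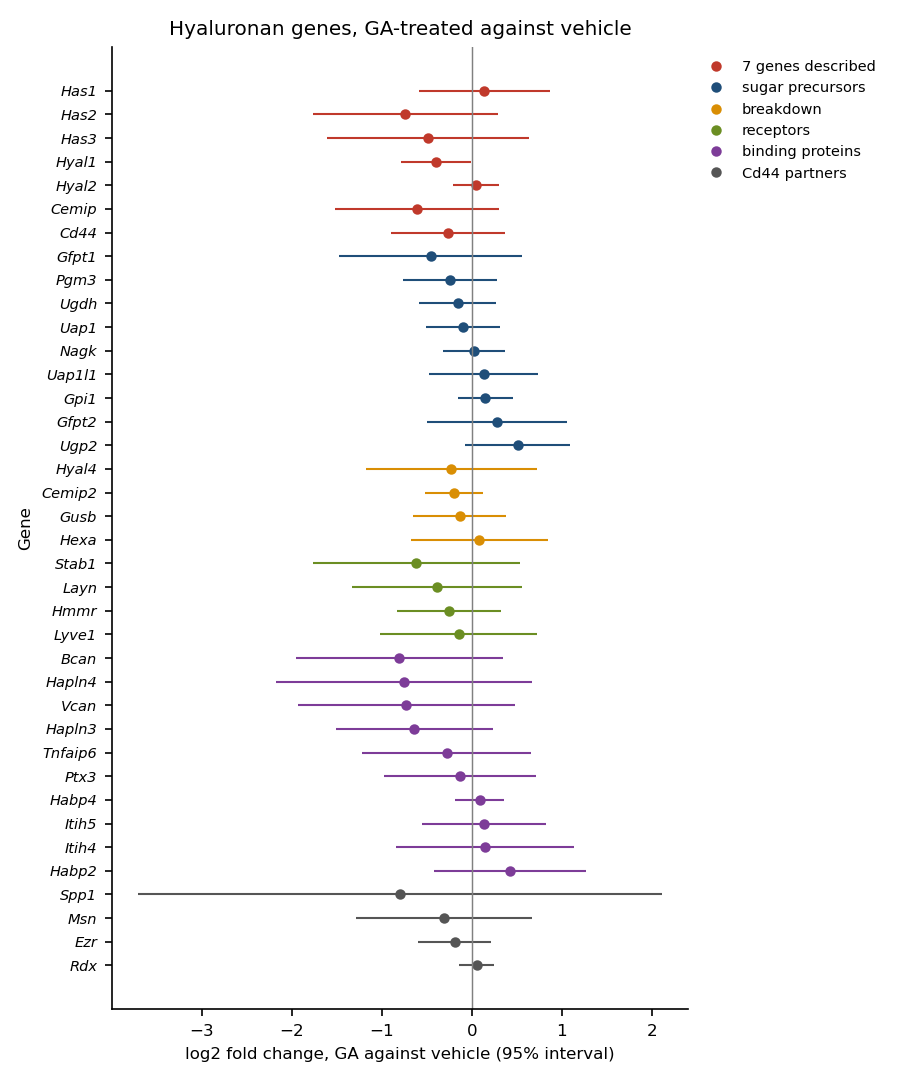
Log2 fold change of GA against vehicle with its 95% interval for the 7 genes and further tested genes of the pathway, coloured by role. All intervals shown except that of Hyal1 (-0.78 to -0.01) span 0.

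Has3 and Cd44 tracked the level of basal epithelial genes. A list score is the mean log2 level of the list's genes in a library, and each gene was fitted on it with treatment as a term. The basal list holds keratins of the basal layer (Krt5, Krt14, Krt15), Trp63 and hemidesmosome and laminin genes, and neither Has3 nor Cd44. It was an alternative to the whole epithelial list, which was the planned one. On that list Has3 and Cd44 had limma adjusted p of 0.0797 and 0.0185, as described further below. Per unit of its score Has3 rose by 1.83 on the log2 scale (SE 0.20) and Cd44 by 1.03 (SE 0.11), both with a limma adjusted p of 0.000751. These were 2 of the 7 genes, against 10.7% of all genes outside the epithelial lists that rose with the basal score and 6.96% that fell with it.

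The relation was present in both groups. Over the 12 libraries Has3 had r = 0.95 and rho = 0.93 with the basal score, and Cd44 r = 0.96 and rho = 0.96 (permutation p for r = 1e-05, the smallest 100000 permutations can give, adjusted p = 7e-05 over 14 relations, permutation p for rho = 4e-05 and 2e-05). Within vehicle r was 0.99 for Has3 and 0.94 for Cd44, and within GA 0.92 and 0.98 (n = 6 each). Without Vehicle 4 and GA 6, the libraries farthest from the median score, r was 0.89 for both genes. When any single library was left out, the slope stayed between 1.75 and 1.93 for Has3 and between 0.89 and 1.11 for Cd44, with adjusted p of at most 0.0264 and 0.0209. The basal score itself was 0.25 lower with GA (exact permutation p = 0.422).

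The suprabasal list, which holds genes of the maturing layers such as Krt4, Krt13, Krt76, Ivl and the transglutaminases, did not show this. Has3 had a slope of -0.93 on it (SE 0.38, unadjusted p = 0.0327, adjusted p = 0.165) and Cd44 one of -0.28 (SE 0.25, adjusted p = 0.567). None of the 7 genes passed, against 8.2% of genes that rose and 5.95% that fell. On the basal score minus the suprabasal score, a measure of the balance of the layers, Has3 rose by 0.89 per unit (SE 0.15, adjusted p = 0.00487) and Cd44 by 0.40 (SE 0.12, adjusted p = 0.0681), against 6.93% of genes that rose. For Has3 this held without any single library (adjusted p at most 0.0396). For Cd44 the adjusted p rose to between 0.112 and 0.282 without Vehicle 2, Vehicle 4, GA 1, GA 5 or GA 6.

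**Figure D4:**
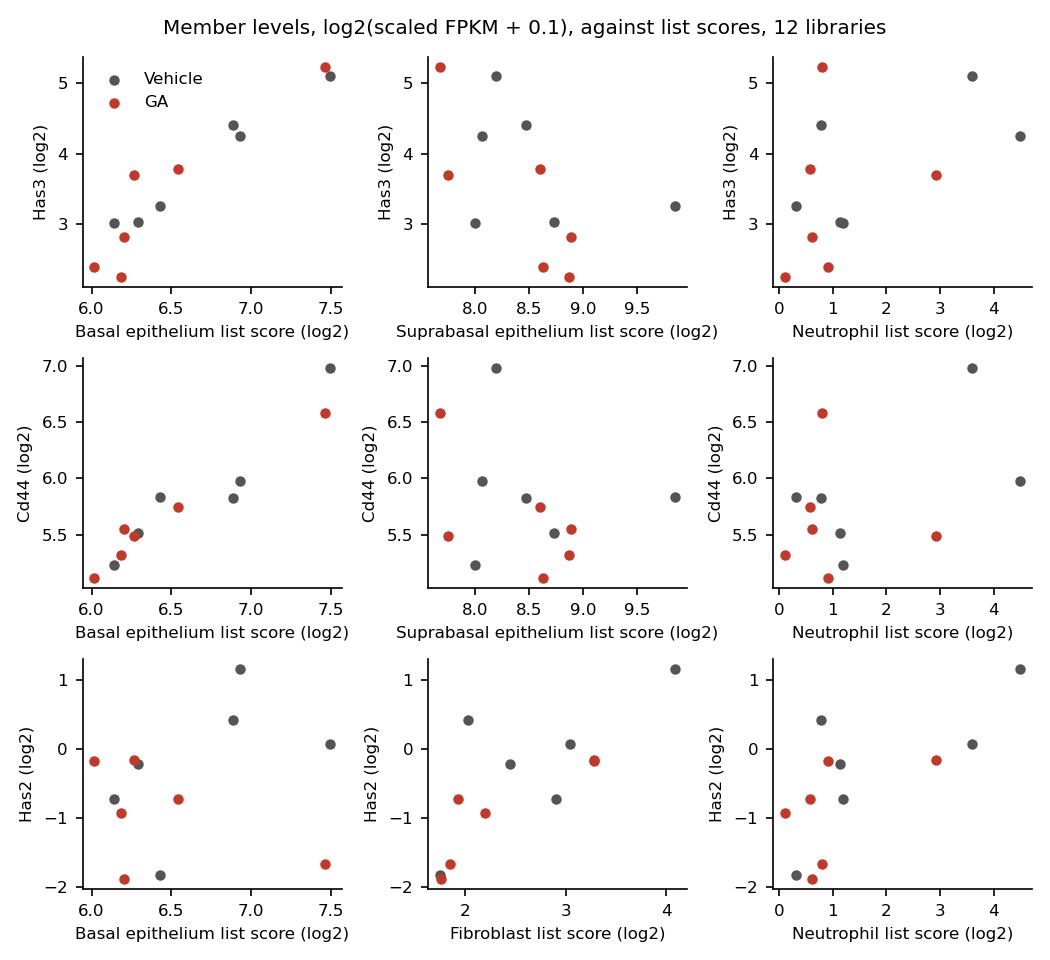
Log2 levels of Has3, Cd44 and Has2 (vertical axes, log2(scaled FPKM + 0.1)) against list scores (horizontal axes, mean log2 level), with 6 vehicle and 6 GA-treated libraries as points. Has3 and Cd44 climb with the basal score in both groups (r = 0.95 and 0.96) and Has2 climbs with the fibroblast score (r = 0.77).

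Over the whole epithelial list, which mixes both layers with adhesion genes, 4 of 7 genes rose with the score, against 13% of all genes that rose and 27.5% that passed in either direction. Cd44 rose by 1.25 per unit (SE 0.31, adjusted p = 0.0185), Hyal1 by 0.64 (SE 0.22, adjusted p = 0.0580), Has3 by 1.82 (SE 0.67, adjusted p = 0.0797) and Cemip by 1.46 (SE 0.55, adjusted p = 0.0836). Hyal2 had 0.19 (SE 0.18), Has1 -0.09 (SE 0.55) and Has2 -0.89 (SE 0.74). These calls were less steady than those on the basal score. Without GA 6 none of the 7 passed, with Cd44 at 1.06 (adjusted p = 0.109) and Has3 at 1.08 (adjusted p = 0.392). The share of all genes that passed when a library was left out is not given. Has3 also lost its call without Vehicle 2, 3, 4 or 6 or GA 1 or 3, Cemip without Vehicle 1, 2 or 3 or GA 1 or 3, and Hyal1 without Vehicle 1 or 3, with adjusted p from 0.103 to 0.225 in these fits. Without the 3 libraries high in Lipf, Hyal1 had 0.73 (adjusted p = 0.196). Cemip on the basal list had a slope of 0.77 (SE 0.40, adjusted p = 0.241), which was 0.11 without GA 6 (adjusted p = 0.943) and 1.30 without Vehicle 4 (adjusted p = 0.0826), and Hyal1 one of 0.28 (SE 0.17, adjusted p = 0.330).

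None of the 7 genes passed with the neutrophil score, against 2.72% of all genes. The score is the mean of the 11 tested genes of a list of 12, with Csf3r, Cxcr2, Mmp8 and S100a8 among them, and its group difference was -0.93 (exact permutation p = 0.227). S100a8 did not follow Csf3r in every library, with 1004 scaled FPKM in Vehicle 6, where Csf3r was 0.269. The score without S100a8 and S100a9 had r = 0.99 with the full score (as a description). Has2 had the largest slope, 0.42 per unit (SE 0.15, interval 0.09 to 0.74, unadjusted p = 0.0172, adjusted p = 0.243), with r = 0.70 and rho = 0.72 (permutation p = 0.00938 and 0.0105, adjusted p = 0.0657 for r over 28 relations). Without Vehicle 4 and Vehicle 5, the libraries with the highest neutrophil scores, r was 0.43, so that relation rests on them. Within vehicle it was 0.72 and within GA 0.51. The slope was 0.31 (SE 0.19) for Has3 and 0.15 (SE 0.11) for Cd44. For the remaining 4 genes it lay between 0.01 and 0.20, with adjusted p of at least 0.521.

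With the epithelium and neutrophil scores in one fit, Cd44 rose with both, by 1.35 per unit of the epithelium score (SE 0.23, adjusted p = 0.00279) and 0.19 per unit of the neutrophil score (SE 0.06, adjusted p = 0.0932). Has3 had 2.02 (SE 0.52, adjusted p = 0.0194) and 0.38 (SE 0.13, adjusted p = 0.137) in that fit. The fit with 2 scores was added after the data were seen, and the share of all genes passing in it is not given. With the neutrophil score as the only score, Cd44 had a limma adjusted p of 0.633. CD44 protein is also carried by leukocytes, and how much of the RNA came from them was not tested.

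Has2 also went with the fibroblast list. It rose by 0.87 per unit of the fibroblast score, a mean of collagen, Dcn, Lum and Pdgfra level (SE 0.23, adjusted p = 0.0862), as 1 of 7 genes against 3.87% of all genes that rose. The correlation was r = 0.77 and rho = 0.80 (permutation p = 0.00347 and 0.00313, adjusted p = 0.0486 for r over 28 relations), 0.70 within vehicle and 0.88 within GA, and 0.62 without Vehicle 5 and GA 1. The call was close to the threshold and was kept only without Vehicle 3, Vehicle 6 or GA 3, with adjusted p from 0.104 to 0.289 when any other library was left out. The slope itself stayed between 0.68 and 1.05. The fibroblast and neutrophil scores moved together over the libraries (r = 0.82, as a description), and with both in one fit Has2 had 0.78 on the fibroblast score (SE 0.42) and 0.06 on the neutrophil score (SE 0.23), neither past the threshold. Has3 had r = 0.06 with the fibroblast score (rho = -0.03, permutation p = 0.863 and 0.921, adjusted p = 0.928 for r).

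The skeletal muscle score ran opposite to the epithelium score (r = -0.88, as a description), and 3 of the 7 genes fell with it, against 13.4% of all genes. Hyal1 fell by 0.24 per unit on the log2 scale (SE 0.07, adjusted p = 0.0411), Cemip by 0.55 (SE 0.19, adjusted p = 0.0645) and Cd44 by 0.36 (SE 0.14, adjusted p = 0.0852). The call of Hyal1 was lost without Vehicle 1 or 3, that of Cemip without Vehicle 1 or GA 6, and that of Cd44 without Vehicle 2, 3 or 6 or GA 1, 3, 5 or 6. Has2 had the opposite sign, 0.48 (SE 0.24, adjusted p = 0.178), and passed without the 3 libraries high in Lipf, at 0.93 (adjusted p = 0.0339), and without Vehicle 3 alone, at 0.94 (adjusted p = 0.0243).

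**Figure D5:**
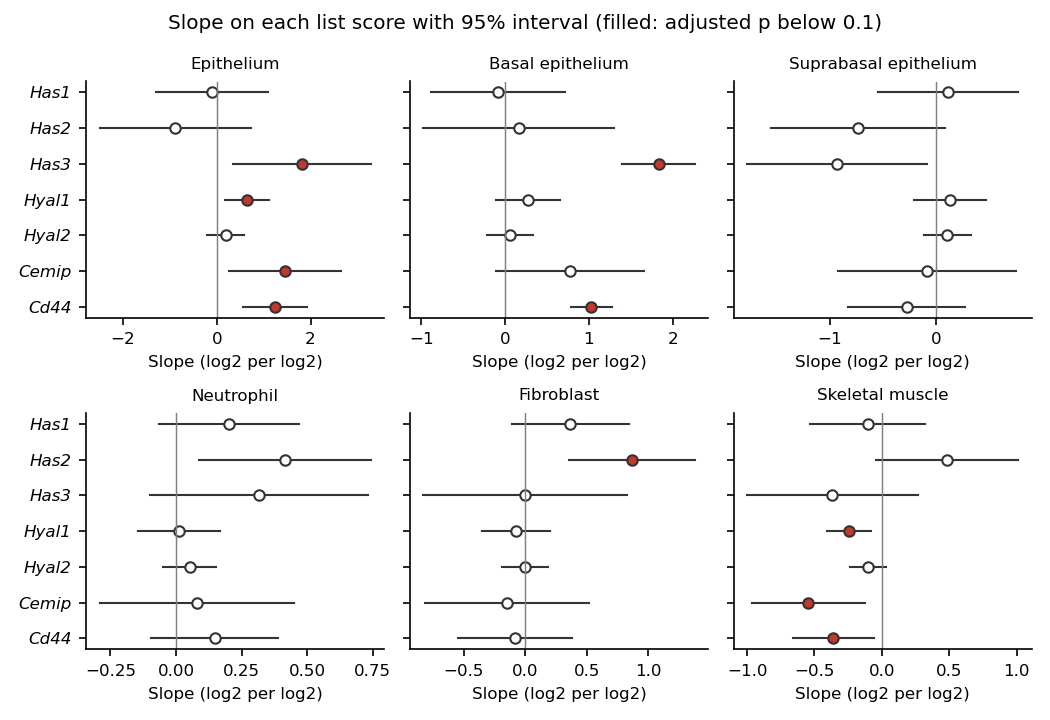
Slope of each gene on each of 6 list scores (log2 level per unit of score) with its 95% interval, with treatment as a term, filled where the adjusted p over all genes was below 0.1. Has3 (1.83) and Cd44 (1.03) stand out on the basal score, Has2 (0.87) is the only one filled on the fibroblast score, and no gene is filled on the neutrophil or suprabasal score.

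The balance of synthases was also set against the list scores. It is built from the same Has2 and Has3 levels, so it is not separate support for the relations above. The log2 ratio of Has3 to Has2 had r = 0.67 with the epithelium score (rho = 0.65, permutation p = 0.0168 and 0.0263, adjusted p = 0.0384 for r over 4 relations), -0.61 with the fibroblast score (rho = -0.78, permutation p = 0.0334 and 0.00358, adjusted p = 0.0445), -0.67 with the muscle score (rho = -0.63, permutation p = 0.0192 and 0.0318, adjusted p = 0.0384) and -0.22 with the neutrophil score (rho = -0.36, permutation p = 0.496 and 0.257). Without the 2 libraries farthest from each score's median, the first of these was 0.60 and the fibroblast relation -0.45. Within vehicle the epithelium relation was 0.60 and within GA 0.87.

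Among the 21 pairs of the 7 genes, 2 had an adjusted p below 0.05 for r. By rho, Hyal1 with Cd44 (0.77) and Cd44 with Cemip (0.76) were also below it (permutation, adjusted p = 0.0325 for both). Their adjusted p for r was 0.283. How often pairs of other genes reach such values was not tested. Has3 and Cd44 had r = 0.89 and rho = 0.85 (permutation p = 7e-05 and 0.00099, adjusted p = 0.00147 for r), with 0.87 within vehicle, 0.93 within GA and 0.81 without Vehicle 4 and GA 6. Hyal1 and Cemip had r = 0.79 and rho = 0.81 (permutation p = 0.00214 and 0.00255, adjusted p = 0.0225 for r), with 0.82 within vehicle, 0.72 within GA and 0.60 without Vehicle 1 and GA 5. The neighbouring genes Hyal1 and Hyal2 had r = 0.34 (rho = 0.19, permutation p = 0.284 and 0.561, adjusted p = 0.746 for r).

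A search ran over 11120 other genes that averaged 1 FPKM or more, and those with the most similar pattern over the 12 libraries are given as a description. For Has3 they included Flrt3 (r = 0.98), an adhesion protein, and Tagln2 (0.97). For Cd44 they were Mapre1 (0.98), which binds growing microtubule ends, Mtpn (0.98) and the lamin protease Zmpste24 (0.98). Has2 was most like the complement protease gene Masp1 (0.92), Sumf1 (0.92) and Cemip2 (0.91), itself a cell surface hyaluronidase of the wider list. Cemip was most like the connexin gene Gjb6 (0.97), Sra1 (0.95) and Tubb2a (0.94). For Hyal1 the leading gene was Wdr91 (0.91), for Hyal2 Gemin2 (0.89) and for Has1 Irak2 (0.83).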

How the data were processed

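Sequencing reads from 6 vehicle and 6 GA libraries of mouse tongue had been aligned by the authors to mm10 with HISAT2, and uniquely mapped reads were counted per gene with featureCounts, as the study's methods and processing notes state. The version of each tool and the strand setting are not given in the sources used here. The authors deposited FPKM values, one table per library, in which reads are divided by library total and gene length. The FPKM tables hold 55463 rows, of which 22965 carry no gene name (16.2% to 25.5% of the FPKM sum) and were left out.

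With GENCODE M21 exon lengths less a fitted offset, 97.7% to 98.3% of values worth 1 to 8 reads were whole (tolerance 0.02 reads), and these reads gave the library totals. FPKM was scaled by a trimmed mean of M values (30% and 5% trimmed, factors 0.896 to 1.07). Genes with a mean of at least 0.1 scaled FPKM were tested with limma 3.58.1 in R 4.3.3 (eBayes with trend) on log2(scaled FPKM + 0.1), for GA against vehicle and for the slope on a list score with treatment as a term. P-values were adjusted over all genes tested. Single genes and shares were tested by exact two-sided permutation, and correlations with 100000 permutations. The fits were tested on simulated data.

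The genes named are the 7 themselves, pathway genes with an unadjusted p below 0.05 and the 2 highest of each pathway list, and the 3 genes most alike each, of which 2 genes are not reported here. These genes, the lists and the rule were chosen with earlier results of these data known. The replicate numbers did not pair the libraries. Alternatives were other pseudocounts, filters and scalings, robust fits, limma-voom on recovered reads, covariate terms, other epithelial and neutrophil lists and each library left out. The basal score minus the suprabasal score, fits with 2 scores and the fits without libraries high in Lipf were added after the data were seen.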

Additional observations from a re-analysis of the deposited data

Results flagged for a closer look

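In groups of 6 libraries, a library was singled out where its gap to the nearest other library, divided by the range of the group, was above Dixon's critical value for 6 values. This was met in 7 of 30 groups of values (23.3%). The critical value gives about 1 in 20 by chance only for independent, normally distributed values. The groups of values here overlap, as the synthase sum is mostly Has3, and many are on the scaled FPKM scale. The share is therefore a description and is not set against chance.

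GA 6 was the highest GA-treated library for Has3 (37.2 scaled FPKM against 13.7 for the next, gap over range 0.723), the summed synthases (37.5 against 14.3, 0.723), Cd44 (95.4 against 53.5, 0.690) and Cemip (10.5 against 3.57, 0.822). Its basal epithelium score was also the highest of the group, at 7.46. Vehicle 4 was the highest vehicle library for Cd44 (126 against 62.8 scaled FPKM, 0.714), with the highest basal score at 7.49. The neutrophil score of GA 2 was 2.93 against 0.903 for the next GA library (0.717). Has1 made up 3.76% of synthase FPKM in Vehicle 1 against 1.70% in the next vehicle library (0.632), a share set there by 31 Has1 and 14 Has2 reads.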

How the results depend on the processing

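None of the 7 genes was called for GA under any setting run, and the order of their levels was the same in all 18 settings in which it was computed (other pseudocounts and scalings, and libraries left out). Over all genes, 336 were called at an unadjusted p below 0.1 with the same fold limit. At the adjusted threshold, where all 12 libraries gave 0, the count was 0 to 1 when a library was left out (1 without Vehicle 4). Hyal2 turned to -0.023 with the sex term and ran from -0.017 to 0.096 when a library was left out, and Has1 from -0.018 to 0.30. The Has3 share was 91.6% to 93.1% without single libraries, and its group difference was 1.47 points from group sums and -2.43 to 0.86 without single libraries. The replicate numbers did not pair the libraries (r of same-numbered libraries -0.37 to 0.08). The replicate block leaves few residual degrees of freedom, and with it Hyal1 had an unadjusted limma p of 0.0787 for GA. In the fits with that block, 0 of the 7 genes passed with the epithelium, basal, basal minus suprabasal, fibroblast or muscle score. The slopes on the basal score were nonetheless 1.93 for Has3 and 1.15 for Cd44.

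Without a filter on low values, which tests more genes, 2 genes passed with the epithelium score, 0 with the fibroblast score and 1 with the muscle score. At a mean of at least 1 FPKM Has2 was no longer tested and 0 passed with the fibroblast score, as was the case without the libraries high in Lipf and with the neutrophil score in the fit. The basal list in place of the epithelium list gave 2 genes and turned Has2 to 0.16, and the suprabasal list gave 0 and turned Has3 to -0.93, Cd44 to -0.28, Cemip to -0.083 and Has1 to 0.11. With the neutrophil score beside epithelium or fibroblast, 1 gene (Cd44) passed with the neutrophil score, and Has1 had 0.015 on epithelium. Without the libraries high in Lipf the neutrophil slopes were -0.0096 for Has1, -0.036 for Hyal1 and -0.18 for Cemip. For these turns the cause was not tested. When single libraries were left out, 0 to 4 genes passed with epithelium, 0 to 1 with fibroblast, 1 to 3 with muscle, 2 to 4 with basal (4 without Vehicle 1, with Hyal1 and Cemip) and 1 to 3 with basal minus suprabasal. Over the same fits, Has1 ran from -0.59 to 0.31 on epithelium, Hyal1 from -0.030 to 0.080 and Cemip from -0.10 to 0.23 on neutrophil, and Has2 from -0.037 to 0.94 on basal. Depth limits Has1, at 9 to 49 reads per library, most. For the basal and suprabasal lists with all libraries, the shares of all genes passing are given further above. For the other fits on list scores in this section those shares are not given. A change in the count of genes that passed in them can therefore not be told from a change over all genes.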

Other observations

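The r of Cemip with the basal epithelium score was -0.03 within vehicle and 0.97 within GA, and with Cd44 it was 0.04 and 0.98 (n = 6 each, as a description). With Hyal1 it was 0.82 within vehicle and 0.72 within GA, and with Has1 0.91 and -0.37. No difference between the groups was tested. GA 6 was the highest GA-treated library for Cemip, Cd44 and the basal score, while the vehicle libraries highest in Cemip were Vehicle 1 and Vehicle 5, with 11.9 and 9.87 scaled FPKM.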
